A study of Homo sapiens with 3 samples.

Results

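The human heat shock proteins and their cochaperones were taken as every gene whose symbol belongs to the HSP90, HSP70, HSP110, DNAJA, DNAJB, DNAJC, BAG, chaperonin or small heat shock protein (HSPB) families, including TRAP1, TCP1, HSPD1 and HSPE1. Membership was decided by symbol alone and by no measured value. It gave 88 genes of the 60605 in the deposited table, of which 86 were annotated as protein-coding and 2, HSPA7 and DNAJB3, as pseudogenes. Poly(A) RNA was sequenced from RCC4, an established human clear cell renal carcinoma line without functional VHL, here carrying a Cas9 construct. All 3 libraries came from cells treated for 24 h with 1000 U/mL IFN-gamma and 25 ng/mL TNF, as 3 biological replicates of 3 flasks each. Cells without the cytokines were not analysed here, so every value is a level in treated cells of 1 line, a ratio within a library or a difference between replicates, and none is a response to the cytokines.

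Molecular chaperones bind unfolded or partly folded proteins and keep them from aggregating. HSP70 proteins hold and release short stretches of a client in a cycle driven by ATP. J-domain proteins (the DNAJ families) deliver clients and start ATP hydrolysis, and exchange factors such as the BAG and HSP110 proteins release the nucleotide and end the cycle. HSP90 takes over clients such as kinases and hormone receptors at a late stage of folding, the ring-shaped chaperonins enclose a client, and small heat shock proteins hold clients without ATP. Many of these genes are induced by the transcription factor HSF1 through heat shock elements, while the chaperones of the endoplasmic reticulum (ER) are induced by the unfolded protein response through ER stress elements.

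Promoters of several abundant members held an element of either kind. Of these, 6 are shown, chosen from the cytosolic, mitochondrial and ER chaperones that the levels below turn on. Each is the 250 bases before an annotated start, 5′ to 3′, from RefSeq on GRCh38.p14. In the 4 promoters that follow, capitals mark the core of the heat shock element, searched as GAANNTTC or TTCNNGAA with overlapping matches counted separately. HSP90AA1, HSP90AB1 and HSPD1 have further annotated starts, and the start shown is the one with this element.
HSPA8 (chr11:123062137-123062386, minus strand): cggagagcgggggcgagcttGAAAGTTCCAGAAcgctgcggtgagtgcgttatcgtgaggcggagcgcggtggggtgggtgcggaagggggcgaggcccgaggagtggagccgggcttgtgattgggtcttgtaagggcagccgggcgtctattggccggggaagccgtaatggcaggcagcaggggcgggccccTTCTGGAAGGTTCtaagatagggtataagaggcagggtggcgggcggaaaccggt
HSP90AA1 (chr14:102087045-102087294, minus strand): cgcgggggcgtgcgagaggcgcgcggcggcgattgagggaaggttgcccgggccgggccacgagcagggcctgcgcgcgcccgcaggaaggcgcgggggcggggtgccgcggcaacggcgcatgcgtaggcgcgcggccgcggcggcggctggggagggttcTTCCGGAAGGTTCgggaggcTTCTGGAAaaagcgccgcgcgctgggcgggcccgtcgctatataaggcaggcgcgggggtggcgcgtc
HSP90AB1 (chr6:44247693-44247942, plus strand): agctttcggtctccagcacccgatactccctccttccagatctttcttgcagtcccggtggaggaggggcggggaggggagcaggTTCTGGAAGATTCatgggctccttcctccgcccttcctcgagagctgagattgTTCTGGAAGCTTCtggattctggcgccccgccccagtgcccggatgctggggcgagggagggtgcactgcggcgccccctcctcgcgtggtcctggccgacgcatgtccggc
HSPD1 (chr2:197499841-197500090, minus strand): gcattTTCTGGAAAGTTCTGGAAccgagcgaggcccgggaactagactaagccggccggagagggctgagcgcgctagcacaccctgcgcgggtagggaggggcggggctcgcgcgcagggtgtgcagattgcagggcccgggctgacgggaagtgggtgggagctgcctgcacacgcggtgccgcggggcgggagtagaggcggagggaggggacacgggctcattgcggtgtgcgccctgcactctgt
In the ER chaperone promoters that follow, capitals mark the ER stress element, searched on both strands as CCAAT and CCACG separated by 9 bases.
HSPA5 (chr9:125241344-125241593, minus strand): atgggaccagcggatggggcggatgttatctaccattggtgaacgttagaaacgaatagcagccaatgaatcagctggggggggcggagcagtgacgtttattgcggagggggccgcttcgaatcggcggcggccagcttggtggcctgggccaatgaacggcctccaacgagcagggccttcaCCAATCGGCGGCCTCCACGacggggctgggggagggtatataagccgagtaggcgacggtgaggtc
HSP90B1 (chr12:103930160-103930409, plus strand): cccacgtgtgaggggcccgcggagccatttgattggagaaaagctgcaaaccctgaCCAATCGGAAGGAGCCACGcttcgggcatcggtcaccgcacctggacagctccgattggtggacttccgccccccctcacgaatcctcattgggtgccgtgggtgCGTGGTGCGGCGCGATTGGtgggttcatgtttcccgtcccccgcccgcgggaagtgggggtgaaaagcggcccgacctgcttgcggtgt

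In the windows shown, HSPA8 and HSP90AB1 held 4 core matches each and HSP90AA1 and HSPD1 held 3 each. HSPA5 held 1 ER stress element and HSP90B1 held 2, the second of them in reverse orientation. RefSeq promoters (windows of 300 bases: 250 before and 50 after the start) were matched for 77 of the 88 members, 100 promoters in all. A heat shock element core was present for 27 of the 77 genes (35.1%), against 16.2% of all 27305 genes with a promoter. The windows of HSPA1A, HSPA1B and HSPB1 held 1 core match each, and those of BAG3, HSPH1 and HSPE1 held none. The longer form with 3 alternating units (GAA and TTC in turn, with 2 bases between units) was present for 7 of the 77 (9.09%), namely DNAJA1, DNAJB6, HSP90AA1, HSP90AB1, HSPA6, HSPA8 and HSPD1, against 0.608% of all genes. The ER stress element was present for HSPA5 and HSP90B1, 2 of 77, against 25 of all 27305 genes (0.0916%). The promoters of HSPA1A and HSPA1B, the paired stress-inducible HSP70 genes on chromosome 6, were identical in 277 of 301 aligned columns (92.0%). HSPD1 and HSPE1, which encode the mitochondrial chaperonin and its lid and lie head to head, have promoter windows that overlap by 204 bases at the other HSPD1 start (chr2:197500275-197500524 before it, minus strand), which held no core match; the HSPD1 promoter shown above does not overlap the HSPE1 window. A match is a description of the sequence, and binding was not measured.

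Of the 88 members, 66 (75%) were detected, meaning at least 1 CPM (the TMM-scaled read count) in every library, against 18.6% of all genes. Among protein-coding members the share was 76.7% (66 of 86), against 51.4% of the 19861 protein-coding genes. Their reads made up 1.49%, 1.53% and 1.64% of the libraries in replicates 1, 2 and 3, and HSPA8 alone supplied 16.1% of them. Levels below are RPKM, the CPM per kilobase of exon. The median level of the detected members was 13.4 RPKM, against 6.09 RPKM over the 10201 detected protein-coding genes. HSP90AB1, HSPB1, HSPA8 and HSP90AA1 were among the 100 most abundant of those genes, and 19 members were among the top 1000. The level of a bulk sample does not tell apart fewer cells with a transcript and less of it per cell.

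The libraries held 26264283 to 33458691 reads assigned to genes. Replicate 1 stood apart from replicates 2 and 3: the common biological coefficient of variation over detected genes was 0.281 with all 3 libraries and 0.0721 without replicate 1. All 8 markers of renal carcinoma epithelium were detected, led by VIM (528 RPKM) and KRT8 (147 RPKM). The renal lineage factors PAX2 (7.77 RPKM) and PAX8 (1.46 RPKM) were the lowest, and 95.7% of the PAX8 exon length lies inside the spans of other genes. The leukocyte markers PTPRC and CD3E were listed at 0, the endothelial markers CDH5 and PECAM1 had at most 8 reads in any library, and of 3 fibroblast markers COL1A1 stood at 0.754 RPKM with COL1A2 and PDGFRA listed at 0.

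**Figure D1:**
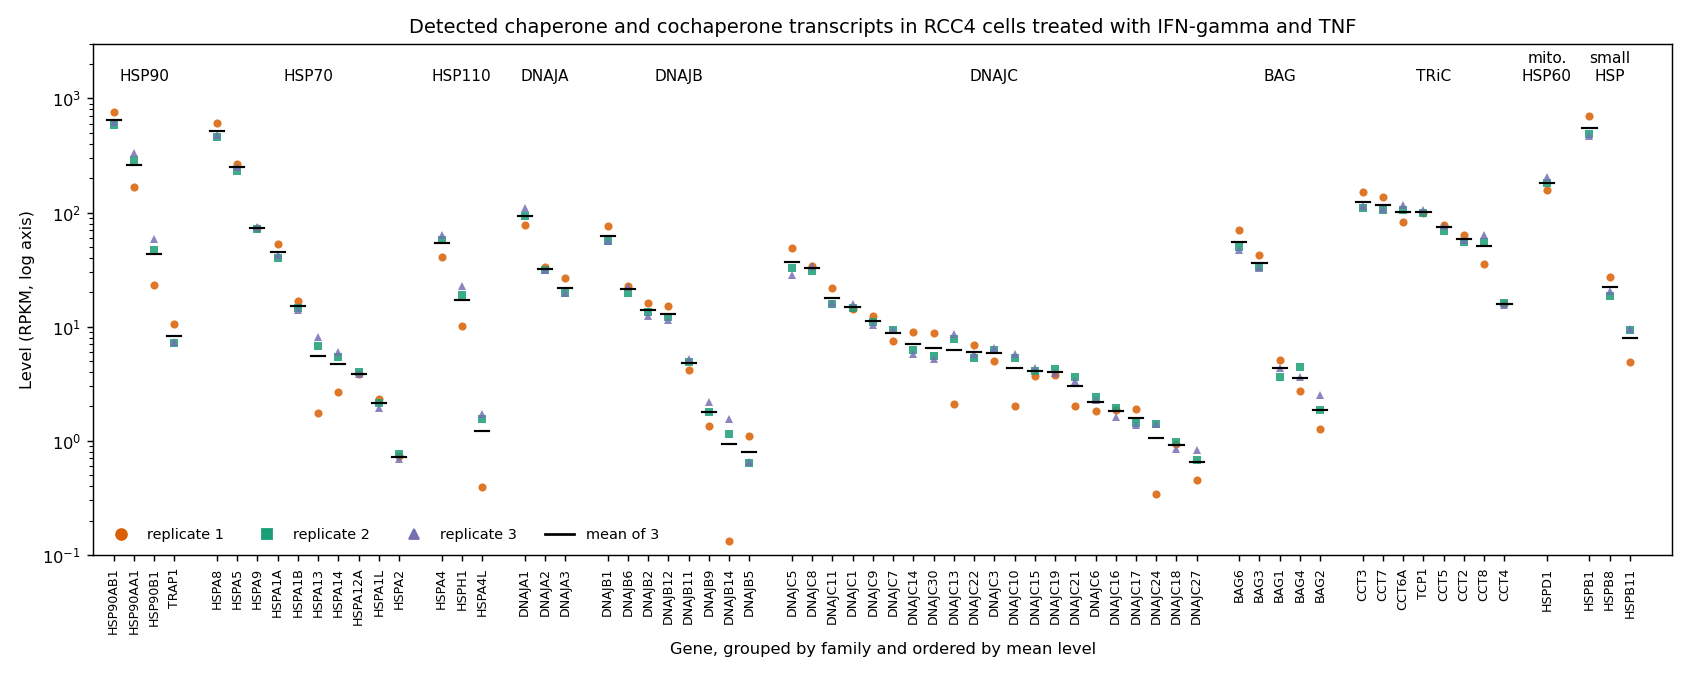
Level in RPKM (log axis) of the 66 detected members, grouped by family and ordered by mean, with 1 symbol per replicate and a bar at the mean of 3. HSP90AB1, HSPB1 and HSPA8 stood highest at 653, 555 and 516 RPKM, and for several members of low mean level replicate 1 lay far below the other libraries.

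The cytosolic HSP90 genes dominated the HSP90 family. HSP90AB1, the constitutive cytosolic HSP90, had 757, 585 and 617 RPKM in replicates 1, 2 and 3 (653 ± 91.6, SD, n = 3) and ranked 35th of the detected protein-coding genes. HSP90AA1, the stress-inducible cytosolic form, had 168, 289 and 333 RPKM (263 ± 85.4). The form labelled constitutive was the higher in every library, while the inducible form was lowest in replicate 1, where the constitutive form was highest. The log2 ratio of HSP90AA1 over HSP90AB1 was −2.17, −1.02 and −0.89, so its mean of −1.36 ± 0.71 did not exceed 2 SD. Without replicate 1, so on 2 libraries, it was −0.95 ± 0.089, and with GC-corrected values −1.36 ± 0.59. Both exceeded 2 SD. Without length scaling the mean ratio was −0.54, so much of the distance rests on the exon lengths used. HSP90AB1 supplied 67.6 ± 9.93% and HSP90AA1 27.1 ± 8.37% of the summed family level.

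HSP90B1, the HSP90 of the ER lumen (GRP94), had 23.2, 46.7 and 59.0 RPKM (43.0 ± 18.2). Its log2 ratio over HSP90AB1 was −4.02 ± 0.88. TRAP1, the mitochondrial HSP90, had 10.5, 7.18 and 7.29 RPKM (8.33 ± 1.89). These 2 organelle forms moved in opposite ways between libraries, HSP90B1 being lowest and TRAP1 highest in replicate 1. For TRAP1, 81.0% of the exon length lies inside the span of the DNASE1 gene on the other strand. A span includes introns, and 29.3% of the TRAP1 exon length lies inside exons of other genes. Below, exon length inside other genes means inside their spans unless their exons are named. The TRAP1 reads divided by the exon length outside other genes' spans gave 43.9 RPKM, and no source used here says how overlapping exons were counted.

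Among 13 HSP70 genes, HSPA8 and HSPA5 carried most of the level. HSPA8, the constitutive cytosolic HSP70 (HSC70), had 608, 461 and 478 RPKM (516 ± 80.5; 46th) and supplied 56.2 ± 2.64% of the family sum. HSPA5, the ER HSP70 known as BiP, had 264, 233 and 249 RPKM (249 ± 15.5; 102nd), or 27.3% of the sum. HSPA9, the mitochondrial HSP70 (mortalin), had 73.1, 71.9 and 74.2 RPKM (73.0 ± 1.13), the steadiest level among the detected members with a coefficient of variation of 1.55%. The order from HSPA8 to HSPA5 to HSPA9 was the same in every library and each step exceeded the replicate spread, with log2 ratios of −1.04 ± 0.14 for HSPA5 over HSPA8 and −2.81 ± 0.22 for HSPA9 over HSPA8.

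The stress-inducible HSP70 genes stood well below the constitutive one. HSPA1A had 52.9, 39.8 and 42.3 RPKM (45.02 ± 6.94), and its log2 ratio over HSPA8 was nearly the same in each library at −3.52, −3.53 and −3.49, an 11.4-fold lower level. HSPA1B had 16.9, 14.6 and 14.0 RPKM (15.2 ± 1.55), with a log2 ratio over HSPA1A of −1.56 ± 0.10. These paired genes share 71.3% of the 50-base stretches of HSPA1A, so how their reads were divided is uncertain. No source used here says whether reads matching both were counted, so the levels of both and their distance from HSPA8 carry the same limit. In addition 56.4% of the exon length of HSPA1B lies inside a noncoding gene, 36.5% inside its exons. Over the length outside that gene the ratio of HSPA1B over HSPA1A was −0.36. HSPA6, a strictly inducible HSP70, was listed at 0 in every library. HSPA6 has all of its exon length inside the span of a noncoding gene that had 6, 0 and 4 reads, and none inside exons. Its pseudogene neighbour HSPA7, which shares 56.3% of its 50-base stretches with HSPA6, had 8, 3 and 11 reads.

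The remaining HSP70 genes were low. HSPA13, a microsome-associated HSP70 without a substrate-binding domain, had 1.77, 6.82 and 8.07 RPKM. HSPA14, which acts at the ribosome with DNAJC2, had 2.67, 5.42 and 5.97 RPKM. Both were at their lowest in replicate 1, with no overlap with the other libraries. By contrast HSPA12A, an atypical member of the family, had 3.82, 3.98 and 3.85 RPKM and HSPA1L, known from testis, had 2.30, 2.16 and 1.93 RPKM. HSPA2, also known from the male germ line, had 0.733, 0.758 and 0.692 RPKM. HSPA12B, the paralogue of HSPA12A, had 8, 13 and 25 reads and was not detected. From HSPA1B down, the steps to HSPA13, HSPA14 and HSPA12A did not exceed the replicate spread, and those from HSPA12A to HSPA1L and HSPA2 did.

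The HSP110 proteins, large HSP70 relatives that act as exchange factors, formed a clear order. HSPA4 had 41.1, 57.0 and 63.9 RPKM (54.0 ± 11.7) and made up 75.2% of the family sum. HSPH1, a heat-inducible member (HSP105), had 10.1, 18.8 and 22.7 RPKM (17.2 ± 6.43). HSPA4L had 0.393, 1.56 and 1.72 RPKM. Each step exceeded the replicate spread, with a log2 ratio of −1.70 ± 0.27 for HSPH1 over HSPA4, and all 3 genes were lowest in replicate 1. Relative to HSPA8 the log2 ratio of HSPA4 was −3.27 ± 0.54 and that of HSPH1 −4.96 ± 0.81.

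The J-domain genes were led by DNAJA1 and DNAJB1, main partners of cytosolic HSP70. DNAJA1 had 77.7, 94.2 and 109 RPKM (93.7 ± 15.7). DNAJA2, a related cytosolic partner, had 33.6, 31.5 and 31.5 RPKM (32.2 ± 1.21). DNAJA1 was above DNAJA2 in every library and the log2 ratio of DNAJA2 over DNAJA1 was −1.52 ± 0.29. DNAJA3, the mitochondrial member, had 26.6, 19.7 and 19.6 RPKM, at a log2 ratio of −1.74 ± 0.25 to its partner HSPA9. DNAJA4 had 4, 10 and 8 reads and was not detected.

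DNAJB1, the classical heat-inducible HSP40, had 76.6, 56.3 and 55.8 RPKM (62.9 ± 11.8), 52.2% of the DNAJB sum. Its log2 ratio over DNAJA1 was −0.02, −0.74 and −0.96, a mean of −0.58 ± 0.49 that did not exceed 2 SD. Without replicate 1, so on 2 libraries, it was −0.85 ± 0.16 and with GC-corrected values −0.57 ± 0.098, and both exceeded 2 SD. Of its exon length 46.0% lies inside the span of TECR, and 6.21% inside exons of other genes. Over the length outside other genes' spans the mean ratio was 0.31, so the order of DNAJB1 and DNAJA1 was not settled. DNAJB6, known for suppressing amyloid and polyglutamine aggregation, had 22.7, 19.8 and 22.2 RPKM, and DNAJB2, which has ubiquitin-interacting motifs, had 16.2, 13.4 and 12.3 RPKM. The log2 ratio of DNAJB6 over DNAJB2 was 0.63 ± 0.19. DNAJB12, an ER membrane protein, had 12.9 ± 1.96 RPKM, and the small step from DNAJB2 to it, a log2 ratio of 0.11 ± 0.026, still exceeded the replicate spread. DNAJB3, DNAJB7 and DNAJB8 were listed at 0.

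The ER partners of HSPA5 stood far below it. DNAJB11, a J protein of the ER lumen, had 4.18, 4.95 and 5.16 RPKM, and its log2 ratio over HSPA5 was −5.68 ± 0.23. DNAJB9, an induced target of the unfolded protein response, had 1.34, 1.79 and 2.20 RPKM, with a log2 ratio over DNAJB11 of −1.40 ± 0.19. DNAJC3 (p58IPK), another lumenal partner, had 4.96, 6.25 and 6.56 RPKM, 0.30 ± 0.055 above DNAJB11 on the log2 scale. The ranking of these partners depended on gene length: 60.8% of the exon length of DNAJB11 lies inside other genes, 23.2% inside their exons. Over the length outside other genes the log2 ratio of DNAJB11 to HSPA5 was −4.35. There that of DNAJB9 over DNAJB11 was −2.64 and that of DNAJC3 over DNAJB11 was −1.03. With GC-corrected values DNAJC3 over DNAJB11 was 0.31 ± 0.23, within 2 SD. HSP90B1, the other abundant lumenal chaperone, was below HSPA5 in every library, with a log2 ratio of −2.63 ± 0.76.

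In the DNAJC family, whose members share only the J domain, 21 of 26 genes were detected. DNAJC5, the cysteine string protein of exocytic vesicles, had 49.3, 32.9 and 28.4 RPKM (36.9 ± 11.0), and DNAJC8, a protein associated with splicing, had 33.8, 30.7 and 33.8 RPKM (32.8 ± 1.79). These genes, the highest on full exon length, did not differ beyond their replicate spread. DNAJC11, a protein of the mitochondrial outer membrane, averaged 17.9 ± 3.39 RPKM and DNAJC1, of the ER membrane, 14.9 ± 0.894 RPKM. The family formed a near-continuous series of levels: 3 of its 20 steps between neighbours exceeded the replicate spread. The same share was not computed for other sets of genes. The order depended on the length used. DNAJC9, a histone chaperone, has 81.1% of its exon length inside other genes and 29.1% inside their exons. Over the length outside other genes it had 59.5 RPKM against 11.2 RPKM on full length and stood above DNAJC5 and DNAJC8. On that length DNAJC7 (18.9 RPKM) and DNAJC14 (18.0 RPKM) stood above DNAJC1. DNAJC2, the J protein that works with HSPA14 at the ribosome, DNAJC25 and DNAJC4 were listed at 0.

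BAG6 and BAG3 led the BAG family. BAG6, which escorts tail-anchored and mislocalised proteins, had 69.7, 50.4 and 46.5 RPKM (55.5 ± 12.4). BAG3, a partner of HSPB8 in selective autophagy and a known HSF1 target, had 42.7, 33.3 and 32.5 RPKM (36.2 ± 5.67). BAG6 was above BAG3 in every library, and together they supplied 54.4% and 35.7% of the family sum. BAG1, the founding exchange factor of the family, had 5.11, 3.63 and 4.37 RPKM, so that the log2 ratio over BAG1 was 3.02 ± 0.15 for BAG3 and 3.63 ± 0.21 for BAG6. BAG4 averaged 3.58 ± 0.838 RPKM, within the replicate spread of BAG1, and BAG2, an inhibitor of the ubiquitin ligase CHIP (STUB1), had 1.26, 1.85 and 2.49 RPKM. For BAG2 50.02% of the exon length lies inside other genes, mostly RAB23, and over the length outside them both BAG2 and BAG4 stood at 3.74 RPKM. BAG5 was listed at 0 and all of its exon length lies inside other genes, 1.37% of it inside their exons.

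TRiC, the cytosolic chaperonin that folds actin and tubulin, is built from 8 different subunits. CCT3 averaged 124 ± 22.5 RPKM, CCT7 116 ± 17.1, CCT6A 102 ± 17.5, TCP1 100.9 ± 3.59, CCT5 74.4 ± 4.60, CCT2 58.8 ± 4.45, CCT8 51.4 ± 14.3 and CCT4 15.8 ± 0.352 RPKM. On full exon length the steps among the 4 highest did not exceed the replicate spread, while those from TCP1 to CCT5 and from CCT5 to CCT2 did. For CCT5, 30.1% of the exon length lies inside exons of other genes. Over the length outside other genes it had 106 RPKM, against 118 for TCP1 and 102 for CCT6A. The place of CCT5 below the 4 highest thus depended on the length used. CCT4 stood apart, at 15.8, 16.1 and 15.4 RPKM in replicates 1, 2 and 3, against 35.4, 55.7 and 63.1 RPKM for the next lowest, CCT8. The range over 8 subunits was 2.95 on the log2 scale and over the 7 without CCT4 it was 1.30, or 2.46-fold. For CCT4, 64.8% of the exon length lies inside other genes, mostly an antisense gene listed at 0, and 12.6% inside their exons. Over the length outside other genes its level was 44.9 RPKM. On that length the range over 8 subunits was 1.61. CCT6B, a testis paralogue of CCT6A, had 32, 21 and 24 reads and was not detected, a log2 ratio of −8.40 ± 0.53 to CCT6A with the pseudocount of 0.1 used throughout and of −6.40 with a pseudocount of 1.

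**Figure D2:**
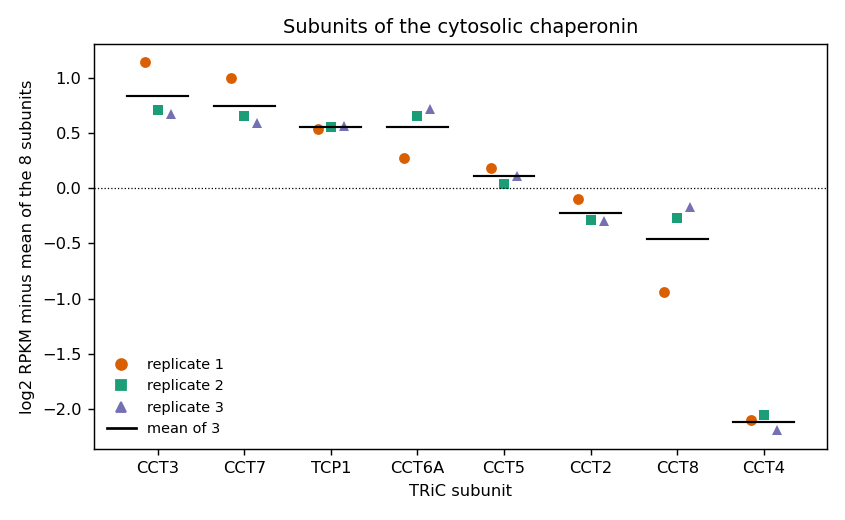
Level of each TRiC subunit relative to the mean log2 RPKM of the 8 subunits in the same library, with 1 symbol per replicate and a bar at the mean of 3. CCT4 lay 2.11 below the subunit mean, and CCT8 lay 0.94 below it in replicate 1 but 0.27 and 0.17 below it in replicates 2 and 3.

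HSPD1, the mitochondrial chaperonin (HSP60), had 158, 180 and 204 RPKM (181 ± 23.0; 158th), above the mitochondrial HSP70 HSPA9 in every library with a log2 ratio of 1.30 ± 0.17. The log2 ratio of TRAP1 over HSPA9 was −3.14 ± 0.31, or −0.77 over the length outside other genes. HSPE1, the co-chaperonin (HSP10) that closes the HSPD1 ring, was listed at 0 in every library. All of its exon length lies inside the HSPD1 span in GENCODE 29, 14.2% of it inside HSPD1 exons, and the readthrough gene HSPE1-MOB4 was also listed at 0. The ratio of HSPD1 to HSPE1 was therefore not measured.

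HSPB1 (HSP27) was nearly the whole of the signal of the 8 genes with an HSPB symbol. It had 704, 493 and 469 RPKM (555 ± 129, 40th), 94.7 ± 0.855% of their sum. CRYAB, a small heat shock protein without an HSPB symbol, is not in this sum. It had 1949, 1456 and 1981 reads, beside 2117, 1442 and 2046 for HSPB8. HSPB8, the BAG3 partner, had 27.3, 18.6 and 20.6 RPKM (22.1 ± 4.56). HSPB1 and HSPB8 were both highest in replicate 1, and the log2 ratio of HSPB1 over HSPB8 was 4.64 ± 0.12. The log2 ratio of HSPB8 over BAG3 was −0.65, −0.84 and −0.66, so HSPB8 was 1.64-fold lower than its partner on average. HSPB11, which is the intraflagellar transport protein IFT25 despite its symbol, had 4.89, 9.41 and 9.61 RPKM. HSPB6 had 16, 22 and 20 reads and was not detected, and HSPB2, HSPB3, HSPB7 and HSPB9 were listed at 0.

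**Figure D3:**
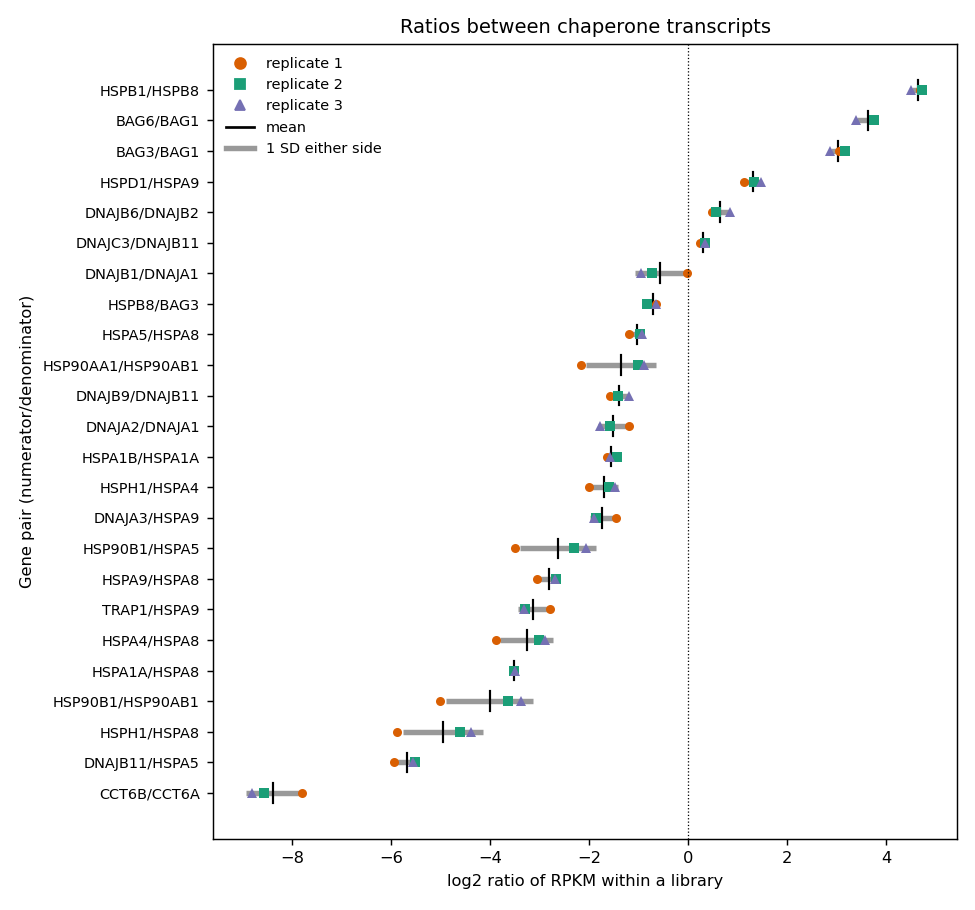
Log2 ratio of RPKM within a library for the 24 measured gene pairs, numerator first, with 1 symbol per replicate, a black bar at the mean and a grey bar of 1 SD either side. For 22 pairs all libraries had 1 sign and the mean exceeded 2 SD; HSP90AA1/HSP90AB1 (−1.36 ± 0.71) and DNAJB1/DNAJA1 (−0.58 ± 0.49) were the exceptions.

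Ratios were fixed for 26 pairs of isoforms, partners and paralogues, and 24 could be measured; HSPD1/HSPE1 and HSPA6/HSPA1A could not, because a gene of each was listed at 0. The ratio was past the replicate spread for 22 pairs, 6 with the numerator higher and 16 with it lower. The share of other gene pairs past the same rule was not computed, so this count is no trait particular to chaperones. No p is given, since a two-sided exact sign-flip permutation of 3 libraries cannot go below 0.25.

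Members differed between libraries mainly by replicate 1, and the direction followed the base composition of the transcript. Replicate 1 was the highest of 3 for 30 detected members, against 48.5% of all detected genes, and the lowest for 29, against 43.0%. The 9 members below 50% of the mean of replicates 2 and 3 (13.6% of the 66, against 12.9% of all detected genes) were DNAJB14, HSPA13, HSPA4L, DNAJC24, DNAJC13, DNAJC10, HSP90B1, HSPA14 and HSPH1. No member was over 2-fold higher in replicate 1, against 0.186% of all detected genes. The shares of members were thus near those of all genes, and the median difference of replicate 1 was 0.025 on the log2 scale for members and 0.043 for all detected genes. Between replicates 3 and 2 no member differed by over 2-fold.

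DNAJB14, a J protein of the ER membrane, had 47, 410 and 703 reads in replicates 1, 2 and 3, a log2 difference of −3.28 for replicate 1. HSPA13 followed at −2.06, HSPA4L at −2.04, DNAJC24, which takes part in making diphthamide, at −1.99, and DNAJC13, an endosomal protein (RME-8), at −1.97. At the other end DNAJB5 stood at 0.75, DNAJC30 of mitochondria at 0.69, DNAJC5 at 0.68, DNAJC14 at 0.60 and HSPB1 at 0.55. The transcript GC content of the 5 lowest lay between 34.9% (DNAJB14) and 40.9% (DNAJC13), and that of the 5 highest between 53.1% (DNAJC14) and 63.6% (HSPB1). All 8 detected members below 40% GC were lower in replicate 1 (median −1.72, against −1.32 for all genes of that range). All 12 at 55% GC or more were higher in it (median 0.44, against 0.36). Across the 66 detected members Spearman's rho between GC content and the replicate 1 difference was 0.880, against 0.731 over all detected genes; this is a description across genes, which share the same libraries.

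With the GC trend of each library removed, the members below 50% in replicate 1 fell to 2, DNAJB14 at −1.79 and DNAJC13 at −1.18. The trend was fitted on the detected genes of these same libraries, members included, so a fall is in part built into the step. HSP90AA1, at a GC content of 45.1%, was at −0.89 before the correction and −0.71 after it. HSP90B1 was at −1.18 before and −0.69 after. HSPH1, in contrast, moved to 0.09 and DNAJC10 to 0.07. Other members were well above 0 after the correction: BAG2 stood at −0.78 before and 0.74 after, DNAJC15 at −0.19 and 0.81, DNAJC3 at −0.37 and 0.57, and DNAJA2 at 0.09 and 0.65. The median of the detected members after correction was 0.12, against 7.4e-05 over all detected genes, which the correction brings near 0 by construction. The part of base composition, or of anything else in that library, in these differences was not tested further.

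**Figure D4:**
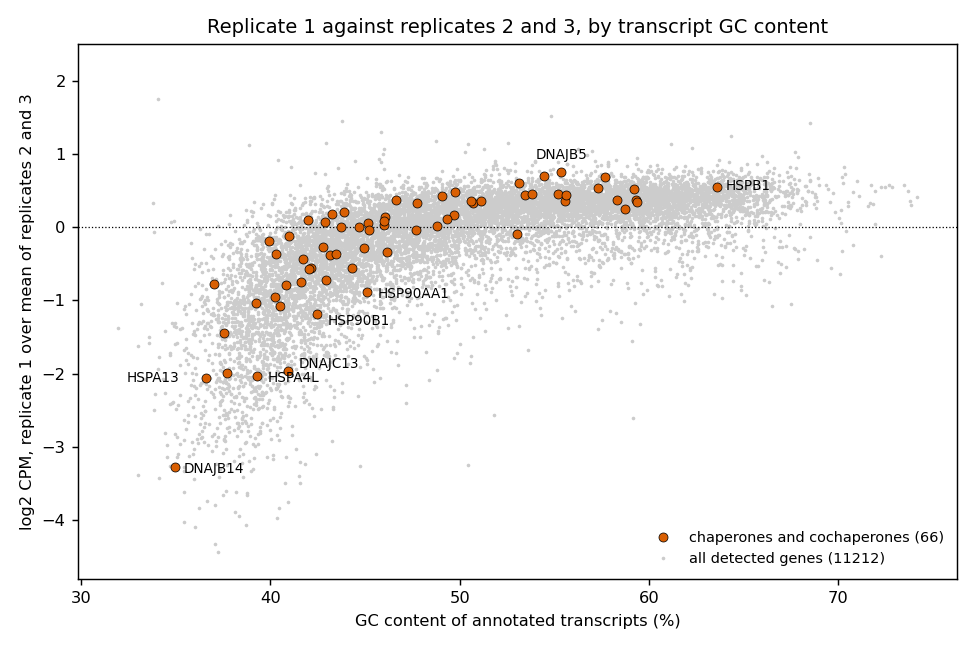
Log2 CPM of replicate 1 over the mean of replicates 2 and 3 against the GC content of annotated transcripts, for the 66 detected members (orange) and the 11212 detected genes with a GC value (grey). Members followed the genes around them: those below 40% GC lay between −3.28 and −0.19, and those at 55% or more between 0.24 and 0.75.

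Of the 88 members, 22 were not detected. Listed at 0 in every library were 13 of the 88, the pseudogene DNAJB3 among them, against 28.7% of the 19861 protein-coding genes. The other 9 had some reads. A count of 3 reads in the shallowest library would be 0.0168 RPKM for DNAJC2, the longest of the 13, and 0.141 RPKM for HSPB3, the shortest, counting error only. For 11 of the 13 at least 50% of the exon length lay inside other genes' spans on either strand, the exceptions being HSPB3 and HSPB7, small heat shock proteins known from muscle. The share so covered among all protein-coding genes listed at 0 was not computed. Where at least 80% lay inside other genes, 2 of 12 members were detected, TRAP1 and DNAJC9; the share of protein-coding genes in that class was 8.69%. Where 20 to under 80% did, 10 of 15 members were detected, against 63.5% of protein-coding genes. Where under 20% did, 54 of 61 members were detected, against 58.6% of protein-coding genes. DNAJC2 was at 0 with 57.9% inside other genes and 9.57% inside their exons, chiefly PMPCB, which had 1444, 1567 and 2028 reads. HSPB2 lies wholly inside the CRYAB gene, which had 1949, 1456 and 1981 reads. DNAJB4, a cytosolic relative of DNAJB1, had 5, 6 and 20 reads with 90.3% inside the GIPC2 span and 2.06% inside exons of other genes. The part of this overlap in the values listed at 0 was not tested, and a value of 0 here does not show that HSPE1, BAG5, DNAJC2 or DNAJC4 was not transcribed.

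**Figure D5:**
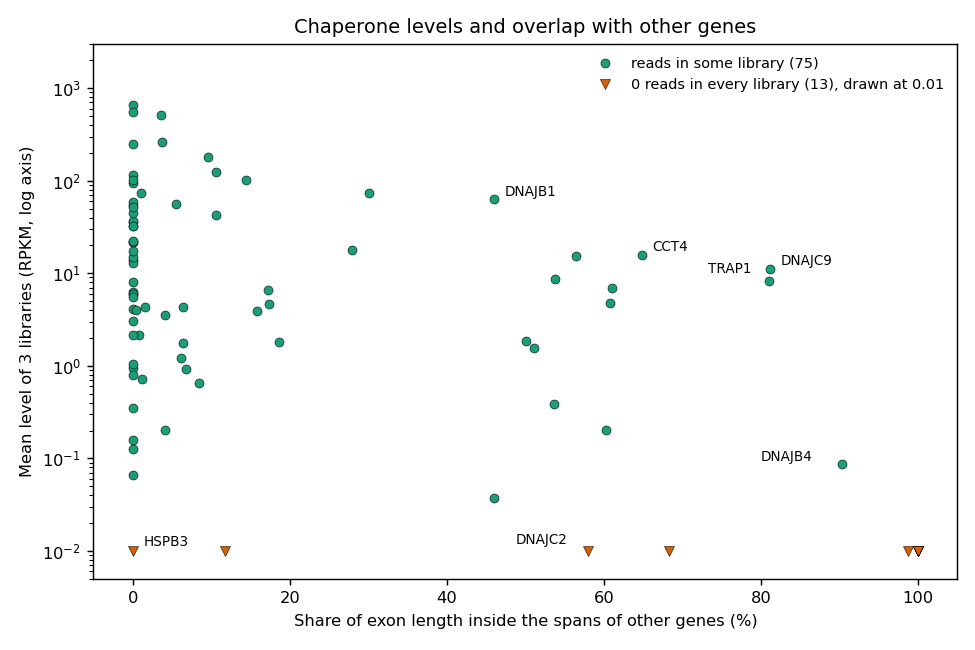
Mean level in RPKM (log axis) of all 88 members against the share of exon length inside the spans of other genes; the 13 listed at 0 are drawn at 0.01. Of the 12 members at 80% or more, 9 were at 0, and of the 61 members under 20%, 2 were. The shares of all genes at 0 in these classes were not computed.

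Other genes of the pathway were read from lists of regulators and partners. All 4 genes of the heat shock factor list were detected, from HSBP1, a small HSF1-binding protein, at 25.1 ± 1.12 RPKM to HSF4 at 1.90 ± 0.530 RPKM, with HSF1 itself at 28.7, 22.2 and 20.8 RPKM. Of 17 HSP90 cochaperones 15 were detected, led by the kinase adaptor CDC37 at 160, 120 and 124 RPKM. Levels of PTGES3 (p23) at 109 ± 2.14 RPKM and STIP1 (HOP), which links HSP70 to HSP90, at 80.1 ± 12.4 RPKM followed, while FKBP4 was listed at 0 with its whole exon length inside other genes. Of 5 further HSP70 exchange factors 4 were detected, from HSPBP1 at 47.1 ± 11.0 RPKM to SIL1 at 5.91 ± 0.692 RPKM, and GRPEL2 was not detected. Of 6 prefoldin subunits, which hand actin and tubulin to TRiC, 5 were detected, led by PFDN2 at 106 ± 11.4 RPKM, and PFDN5 was listed at 0 although only 5.38% of its exon length lies inside other genes.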

How the data were processed

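RNA from 3 libraries of 1 group was analysed. The submitters' processing notes list FastQC, cutadapt 1.18, HISAT2 2.1.0, featureCounts 2.0.0 and the build hg38, and no source used here gives the annotation release, the strand setting or how overlapping genes were counted. The deposited table holds a signal per gene, which proved to be counts scaled by the authors with 1 size factor per library (0.946, 0.971 and 1.24). In each library 100% of nonzero values were whole reads within 0.01 read, giving 29199806, 26264283 and 33458691 reads. The whole reads were normalised by TMM (edgeR 4.0.16 under R 4.3.3), with median-of-ratios factors from DESeq2 1.42.0 as an alternative. All 88 members matched GENCODE 29 (GRCh38), the source of exon length, overlap and GC content; RPKM used the union of exons and log2 values a pseudocount of 0.1. GC correction removed a median trend over 20 GC bins per library, fitted on the detected genes. Detection needed 1 CPM in every library. A ratio was past the replicate spread when all libraries shared its sign and its mean exceeded 2 SD. With 1 group no test between groups exists. The spread and GC steps were tested on simulated data.

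The families were proposed, and the lists and pairs drawn up, with earlier results of these data known, while membership in a family was decided by symbol alone. The text names every HSP90, HSP70, HSP110, chaperonin and BAG gene, the 4 highest and 3 lowest of each DNAJ and small heat shock protein family, both genes of each pair, the 5 extremes of replicate 1 at each end, and the highest and lowest of each other list. Other genes named, and the element with 3 units, were chosen after their values were seen. Sequence shared between genes was counted over stretches of 50 bases.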

Additional observations from a re-analysis of the deposited data

How the results depend on the processing

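The number of detected members stayed between 53 and 74 under every alternative tried and was 66 with any 1 replicate left out. The median log2 level over all 88 members, those at 0 included, was 2.26. It ranged from 2.08 to 2.54 with 1 replicate left out, 2.54 being without replicate 1. On exon length outside other genes it was 2.96, but members with almost no such length, many of them at 0, have no value there. It was 4.89 without length scaling and 2.65 without members at least 80% inside other genes. The log2 range of the TRiC subunits (2.95) was 2.81 to 3.05 with 1 replicate left out, 1.61 on exon length outside other genes, where the level of CCT4 changes by construction, and 3.47 without length scaling. The median replicate 1 difference (0.025) was −0.021 without replicate 2 and −0.0095 without replicate 3, 0.058 with the authors' scaling, 0.12 after GC correction and 0.00013 without the filter on low values. The median biological coefficient of variation of the detected members, as estimated by edgeR, was 0.234. It was 0.0626 to 0.321 with 1 replicate left out, the lowest without replicate 1. After GC correction it was 0.15, a fall that is in part built in, since the trend was fitted on the same libraries. The stricter heat shock element left 7 of 27 genes, a choice made after seeing the data. Of 168 pair values under the alternatives 141 stayed within 1 SD. These include all 24 for each replicate left out, since leaving out 1 of 3 values cannot move a mean by 1 SD. All 24 also stayed within it after GC correction. Without length scaling 14 of 24 moved beyond 1 SD, and with a pseudocount of 1, 6 did. On exon length outside other genes 17 of 24 stayed within it and 2 changed sign. There DNAJC3 over DNAJB11 was −1.03, and DNAJB1 over DNAJA1, not past the replicate spread on either length, was 0.31. No paired analysis was possible because there is 1 group. The number of pairs past the replicate spread was 21 to 24: HSP90AA1/HSP90AB1 and DNAJB1/DNAJA1 joined the 22 without replicate 1 or after GC correction, DNAJC3/DNAJB11 left after GC correction, and HSPD1/HSPA9 left without length scaling. Each SD rests on 3 libraries, or on 2 where a replicate was left out.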

Other observations

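Pseudogenes of the chaperone families carried few reads beside their parents. Of 120 annotated pseudogenes 27 had reads, 1655, 2217 and 2734 in replicates 1, 2 and 3, or 0.380%, 0.550% and 0.498% of the reads of the 88 members. HSP90AA2P, a processed copy of HSP90AA1, had 537, 1007 and 1369 reads and HSP90AB3P, a copy of HSP90AB1, had 667, 518 and 676. Each copy was low or high in replicate 1 in the same direction as its parent gene. Reads of a processed copy and of its parent can be exchanged where their sequences are identical: 11.3% of the 50-base stretches of HSP90AA1 and 16.6% of those of HSP90AB1 recur elsewhere in the annotated transcripts. DNAJB6P1, a copy of DNAJB6, had 223, 327 and 223 reads.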
